A study of Mus musculus with 8 samples.

Results

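The respiratory chain of the mitochondrial inner membrane passes electrons from complex I or complex II through ubiquinone to complex III, over cytochrome c to complex IV, where oxygen is reduced, and complex V uses the proton gradient so formed to make ATP. Complexes III, IV and V mix a few subunits encoded in mitochondrial DNA with many encoded in the nucleus, and complex II is encoded in the nucleus alone. HSCs are known for a low rate of respiration while quiescent and for a shift towards oxidative phosphorylation when they enter differentiation.

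The genes described here are 33 nuclear genes of complexes II to V, taken from a fixed list: 4 genes of complex II, 9 of complex III, the gene of cytochrome c (Cycs), 11 subunits of complex IV, 5 genes for the assembly of complex IV, and 3 subunits of complex V. They were 33 of 54749 genes with a transcript in the deposited counts, and all 33 passed the filter on low counts that left 21902 genes for testing. RNA came from bone marrow cells sorted as LT-HSCs by the study, with 1 library for each mouse. The mice were 4 homozygous asrij floxed (replicates 1, 3, 4 and 5) and 4 whole-body asrij KO (replicates 2, 3, 4 and 5), aged 6 months by the labels. The methods give CD48+ for these sorted cells but CD48- for LT-HSCs elsewhere, so LT-HSC below is the study's name for the sort. The floxed mice carry the allele without deletion, and the KO lacks asrij in every tissue, so the cells that surround the HSCs lack it too. Values below are given for the floxed replicates 1, 3, 4 and 5 and then for the KO replicates 2, 3, 4 and 5, in that order. A level is in CPM, the gene count per 1000000 counts of the library, whose size was scaled with the TMM method. A log2 fold change is KO against floxed as fitted by edgeR, with its standard error, and a gene was called where the Benjamini-Hochberg adjusted p of edgeR's quasi-likelihood test was under 0.05.

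Gene counts summed to between 23412829 and 44874882 per library. Ociad1, the mouse gene of Asrij, was at 41.6, 66.9, 36.7 and 31.3 CPM in floxed and at 15.2, 19.7, 12.5 and 11.7 CPM in KO LT-HSCs, so no KO library reached the lowest floxed value, yet each held Ociad1 counts. Its log2 fold change was -1.58 ± 0.27 (adjusted p = 0.0249). The adjusted p was 0.0289 with the replicate number as a block, a fit of replicates 3, 4 and 5 alone. It was between 0.0759 and 0.0881 when KO replicate 2, 4 or 5 or floxed replicate 1 was left out. Of the stem cell markers, Kit was at 46.8 to 60.2 CPM and Procr, which encodes the HSC surface protein EPCR, at 0.142 to 0.962 CPM over the 8 libraries. The 14 neutrophil and monocyte markers summed to between 19528 and 61649 CPM and the 20 erythroid markers to between 3211 and 10502 CPM, with none of these markers at 0 in all libraries, against 188.9 to 237 CPM for the 16 stem cell markers. Haemoglobin genes held 5.13% ± 1.97 (SD, n = 4) of the counts in floxed and 17.8% ± 5.65 (SD, n = 4) in KO libraries (exact two-sided permutation p = 0.0286, the smallest that 70 labelings allow). The difference was 7.84 percentage points within library numbers 1 to 3 and 17.5 within numbers 4 and 5. In a bulk sample, fewer cells of a type and less RNA per cell cannot be told apart.

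No gene of complexes II to V passed the threshold between KO and floxed LT-HSCs, against 268 genes called higher (1.22% of those tested) and 383 called lower (1.75%). At an unadjusted p under 0.05, 8 of the 33 were higher and 1 was lower, where 9.63% of all genes tested were higher and 12.1% lower. limma-voom called 0 of the 33, and DESeq2 called 4, all higher (Cox4i1, Uqcrq, Cox11 and Atp5a1), where DESeq2 called 5.12% of all genes higher. The fitted change was above 0 for 25 of the 33 genes, with a median of 0.33, against a median of -0.01 over all genes tested, of which 49.6% were above 0. For 7 of the 33 the values of every KO library exceeded those of every floxed library (Uqcrc1, Uqcrq, Cyc1, Cox4i1, Cox11, Atp5a1 and Atp5b), which was the case for 7.1% of all genes. None of the 33 had every KO library below every floxed library, which was the case for 7.66% of all genes. Added up over the 32 genes other than Uqcrh, whose count is treated separately, the level was 1669, 1526, 1513 and 1517 CPM in floxed and 2170, 2057, 1838 and 1794 CPM in KO libraries. The sums did not overlap, and the ratio of the KO mean to the floxed mean was 1.26.

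**Figure D1:**
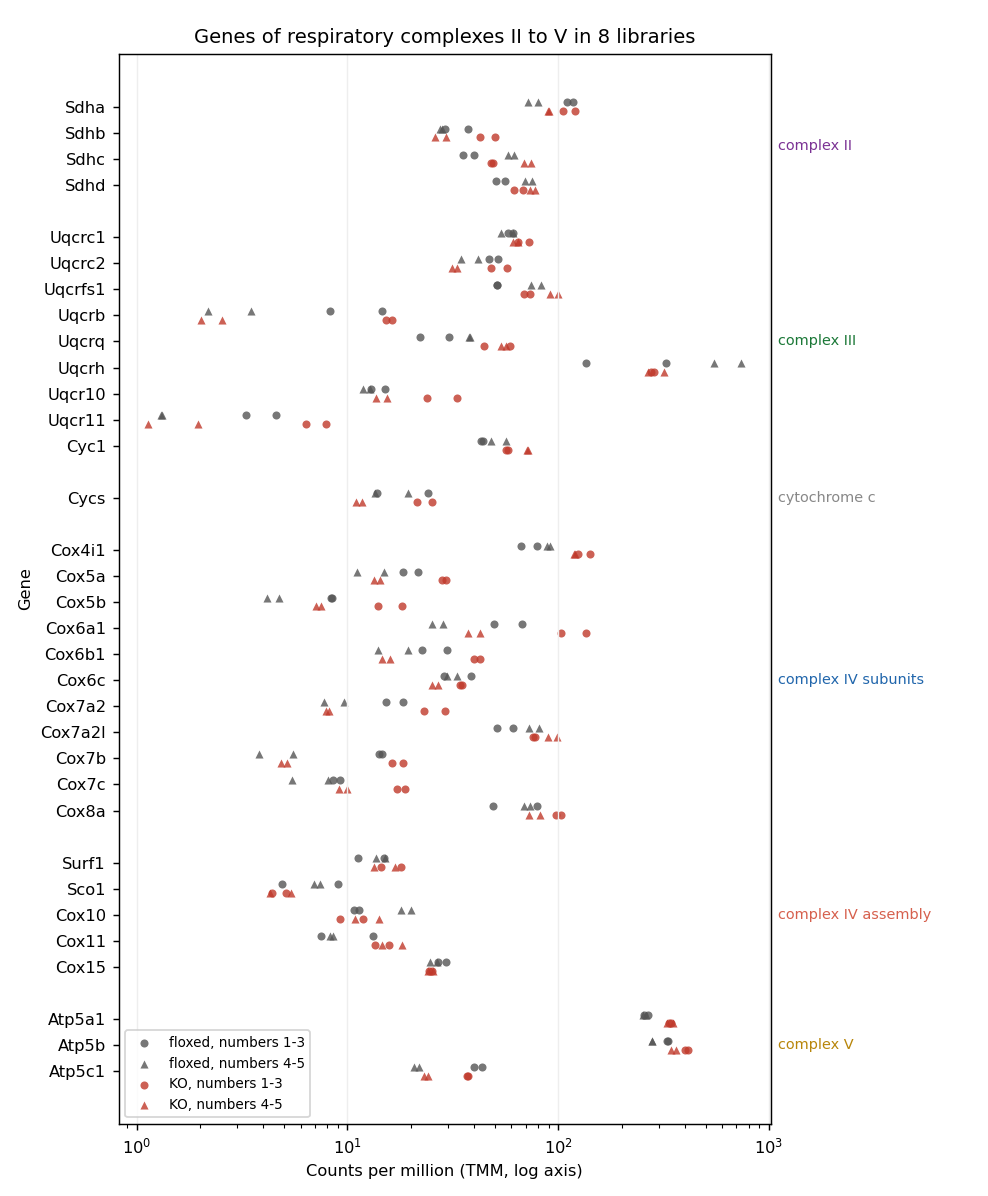
Level of each of the 33 genes in the 8 libraries in CPM on a log axis, grouped by complex, with floxed in grey and KO in red, circles for library numbers 1 to 3 and triangles for numbers 4 and 5. Atp5a1, Atp5b and Cox4i1 show KO symbols to the right of all floxed symbols, whereas for Uqcrb, Cox7b and Uqcr11 the triangles of both genotypes lie far to the left of the circles.

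The library numbers split the samples in a way that genotype does not. Libraries numbered 4 and 5 differed from those numbered 1 to 3 in both genotypes, and the labels give no meaning for the numbers beyond naming the mice. With numbers 4 and 5 entered in the fit as a block, 11 of the 33 genes were called, all higher in KO: Uqcrfs1, Uqcrq, Uqcr10 and Cyc1 of complex III, Cox4i1, Cox5b, Cox6a1, Cox7a2l and Cox7c of complex IV, the assembly gene Cox11, and Atp5a1 of complex V. In that fit 8.88% of all genes were called higher and 9.65% lower, and none of the 33 was called lower. With each replicate number as its own block (numbers 3, 4 and 5, which both genotypes share), 0 of the 33 were called, and the genes called over the whole table went from 651 to 48. That fit left out floxed replicate 1 and KO replicate 2 and tested 21600 genes. The part of the smaller sample in the lower number of calls was not tested. Floxed replicate 3 bore on the calls as well. Without it, 4 of the 33 were called higher (Uqcrq, Cox4i1, Cox11 and Atp5a1), where 8.9% of all genes were, and 2 were called lower (Uqcrh and Sco1), where 8.64% of all genes were.

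**Figure D2:**
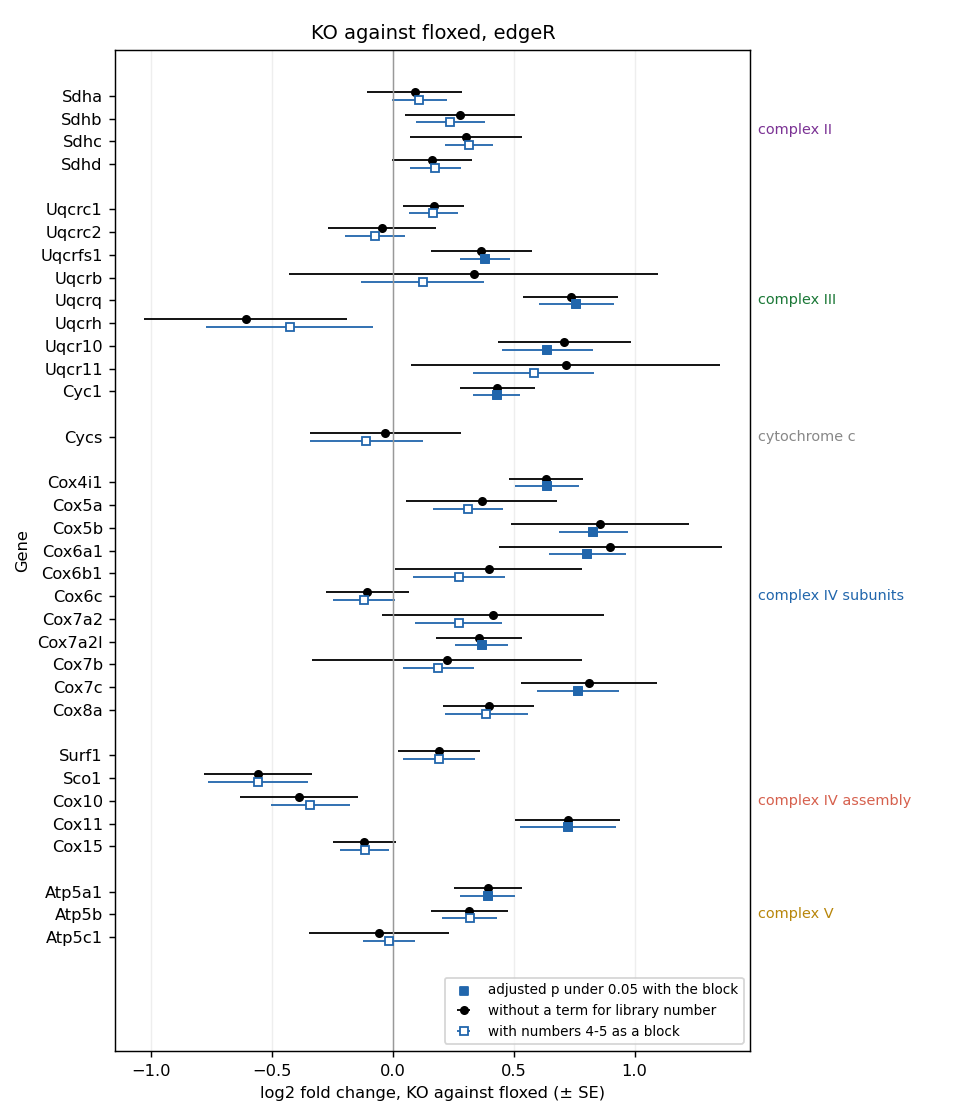
Fitted log2 fold change of each gene, KO against floxed, with its SE as the bar, without a term for library number (black circles) and with numbers 4 and 5 as a block (blue squares, filled where the adjusted p was under 0.05). The positions of circles and squares are close, and the bars of Cox5b, Cox6a1, Cox7b and Uqcrb are shorter with the block.

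Complex II oxidises succinate to fumarate and hands the electrons to ubiquinone. Its flavoprotein subunit gene Sdha was at 118, 110.4, 71.8 and 80.6 CPM in floxed and at 106.0, 119.8, 89.1 and 90.7 CPM in KO LT-HSCs, and the groups overlapped. Sdhb, which encodes the iron-sulfur subunit, was at 37.5, 29.1, 28.1 and 27.6 CPM in floxed and 50.3, 42.4, 29.3 and 26.2 CPM in KO, where KO replicates 2 and 3 stood above all other libraries and KO replicate 5 below them. Sdhc, a membrane anchor of the complex, was at 40.0, 35.4, 58.0 and 61.6 CPM in floxed and at 48.1, 49.0, 74.3 and 69.2 CPM in KO. For Sdhc the KO libraries were above the floxed libraries within numbers 1 to 3 and within numbers 4 and 5, and the groups overlapped only across these ranges. Its log2 fold change was 0.30 ± 0.23 (adjusted p = 0.488) without and 0.31 ± 0.10 (adjusted p = 0.0533) with the block for numbers 4 and 5. Sdhd, the other membrane anchor, had a log2 fold change of 0.16 ± 0.16 (adjusted p = 0.616). All 4 fitted changes of complex II were above 0, with a median of 0.22, and none was called.

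Complex III carries electrons from ubiquinol to cytochrome c. Of its catalytic subunits, Cyc1 encodes cytochrome c1, and it was at 42.9, 43.8, 48.1 and 56.3 CPM in floxed and at 58.0, 56.4, 71.5 and 71.9 CPM in KO LT-HSCs. Every KO library was above every floxed library, although the highest floxed and the lowest KO value lay close together. The log2 fold change was 0.43 ± 0.15 (adjusted p = 0.145), and 0.43 ± 0.10 (adjusted p = 0.0179) with the block for numbers 4 and 5. Uqcrfs1, which encodes the Rieske iron-sulfur protein, was at 51.2, 51.1, 74.0 and 82.7 CPM in floxed and at 73.4, 68.8, 100.2 and 91.3 CPM in KO. As for Sdhc, its levels were higher in numbers 4 and 5 than in numbers 1 to 3 and the KO libraries were the higher ones within each range, with a log2 fold change of 0.38 ± 0.10 (adjusted p = 0.0331) under the block against 0.37 ± 0.21 (adjusted p = 0.349) without it.

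The core proteins of complex III, which face the matrix, had small fitted changes. Uqcrc1 was at 60.7, 58.1, 53.8 and 60.9 CPM in floxed and at 72.6, 64.2, 64.5 and 61.3 CPM in KO, which did not overlap but differed by a log2 fold change of only 0.17 ± 0.13 (adjusted p = 0.484). Uqcrc2 had a log2 fold change of -0.04 ± 0.22 (adjusted p = 0.935). Part of its span is shared with Pdzd9 on the opposite strand, and on a transcript clear of Pdzd9 the value was 0.15.

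Among the small supernumerary subunits of complex III, Uqcrq was at 30.5, 22.0, 38.2 and 37.7 CPM in floxed and at 58.9, 44.7, 53.5 and 56.6 CPM in KO LT-HSCs. The KO libraries were all higher, with a log2 fold change of 0.74 ± 0.20 (adjusted p = 0.0707), and the gene was called with the block for numbers 4 and 5 (0.76 ± 0.15, adjusted p = 0.0121). Uqcr10 was at 12.9, 15.1, 12.8 and 11.9 CPM in floxed and at 33.2, 23.9, 13.7 and 15.4 CPM in KO. Here KO replicates 2 and 3 stood well above the floxed libraries, KO replicate 5 did so by little, and KO replicate 4 lay below floxed replicate 3. Uqcr10 had a log2 fold change of 0.71 ± 0.27 (adjusted p = 0.17), and of 0.64 ± 0.19 (adjusted p = 0.0431) with the block. Uqcr11 was at 3.30, 4.60, 1.32 and 1.30 CPM in floxed and at 7.92, 6.37, 1.14 and 1.96 CPM in KO, and Uqcrb at 14.6, 8.25, 3.49 and 2.18 CPM in floxed and at 16.2, 15.3, 2.55 and 2.03 CPM in KO. Both were separated by library number rather than by genotype, and their standard errors of 0.64 and 0.76 on the log2 scale were the widest of the 33 genes. Of the 50-base stretches of Uqcrb, 43.4% occur in transcripts of other genes.

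Uqcrh, the hinge protein of complex III, had the highest count of complex III and the lowest fitted change of the 33 genes, and almost all of that count lay on another annotated gene. Deposited counts take in reads from the introns of a gene as well as its exons. The last intron of Uqcrh (GRCm38 chr4:116066965-116075071, minus strand) holds Gm12854 (chr4:116067268-116067564, plus strand), a processed pseudogene. The Uqcrh count was 12330, 7158, 17330 and 14309 in floxed and 11120, 10603, 7507 and 8799 in KO libraries. The Gm12854 count was 11517, 6140, 17119 and 14133 in floxed and 9627, 9080, 7307 and 8561 in KO libraries. Gm12854 thus made up between 85.6% and 98.8% of the count of Uqcrh in each library. The 297 bases of Gm12854, as the reference transcripts give them, are printed here because they are where the reads counted as Uqcrh lay. Capitals mark the 3 bases that differ from S100a11, a gene of a calcium-binding protein on chromosome 3, to which the other 294 bases are identical.
Gm12854: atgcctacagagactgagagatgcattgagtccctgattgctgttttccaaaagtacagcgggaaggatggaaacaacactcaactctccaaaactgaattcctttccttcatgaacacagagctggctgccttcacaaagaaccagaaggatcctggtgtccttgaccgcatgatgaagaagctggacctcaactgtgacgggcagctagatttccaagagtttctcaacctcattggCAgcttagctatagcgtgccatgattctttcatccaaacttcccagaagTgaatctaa

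In 50-base stretches, 76.6% of the Gm12854 sequence also occurs in the S100a11 transcript, so reads that lie within such stretches cannot be assigned to either gene. S100a11 itself was at 296, 81.2, 242 and 149 CPM in floxed and at 228, 174, 69.1 and 86.4 CPM in KO libraries. With the Gm12854 count subtracted, the Uqcrh count was 813, 1018, 211 and 176 in floxed and 1493, 1523, 200 and 238 in KO libraries, or 14.1 ± 7.32 CPM (SD, n = 4) against 23.4 ± 18.0 CPM (SD, n = 4). The subtracted level was higher in KO replicates 2 and 3 than in floxed replicates 1 and 3 by a ratio of 1.91, and the ratio within numbers 4 and 5 was 1.0. The log2 fold change of Uqcrh was -0.61 ± 0.42 (adjusted p = 0.44) on the deposited count and 0.34 (adjusted p = 0.728) on a Uqcrh transcript clear of the pseudogene. The call of Uqcrh as lower without floxed replicate 3 went with the same call of Gm12854 (log2 fold change -0.99, adjusted p = 0.0394).

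**Figure D3:**
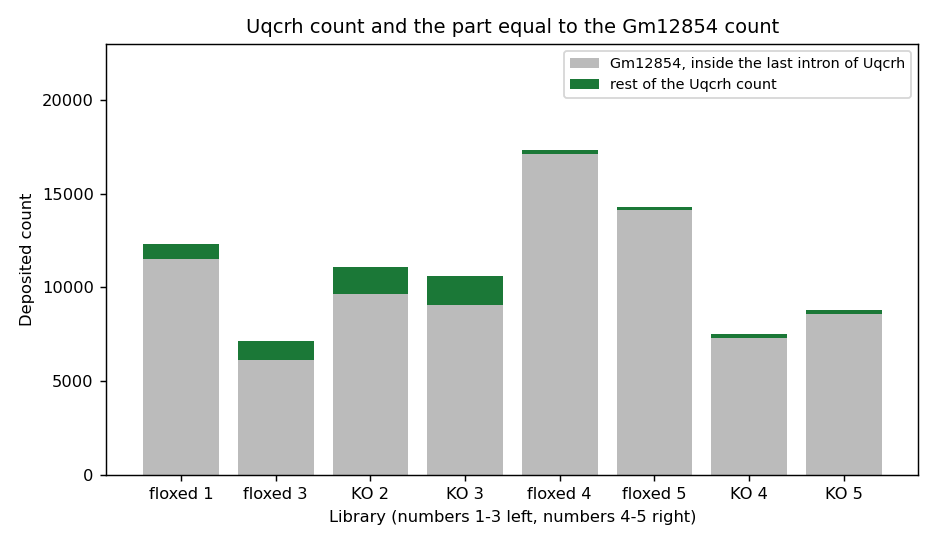
Deposited count of Uqcrh in each library, split into the count of Gm12854 (grey) and the remainder (green), with numbers 1 to 3 on the left and 4 and 5 on the right. The green part is between 813 and 1523 in the 4 libraries on the left and between 176 and 238 in the 4 on the right.

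Cytochrome c, the mobile carrier between complexes III and IV, is encoded by Cycs, of whose 50-base stretches 28.5% occur in transcripts of other genes. Cycs was at 24.2, 13.8, 19.3 and 13.5 CPM in floxed and at 21.4, 25.2, 10.96 and 11.7 CPM in KO LT-HSCs. The KO mean was the higher within numbers 1 to 3 (log2 ratio 0.29) and the lower within numbers 4 and 5 (log2 ratio -0.53), and the fitted change was -0.03 ± 0.31 (adjusted p = 0.972).

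Complex IV passes electrons from cytochrome c to oxygen, and its nuclear subunits surround a core encoded in mitochondrial DNA. Of 11 subunit genes, 10 had a fitted change above 0, the median was 0.40, and 5 were called with the block for numbers 4 and 5. Cox4i1, the main form of subunit 4, was at 79.3, 66.4, 91.3 and 88.3 CPM in floxed and at 141, 125, 119.7 and 119.0 CPM in KO LT-HSCs. All KO libraries were higher, and its adjusted p of 0.0544 was the lowest of the 33 genes (log2 fold change 0.63 ± 0.15). With a filter of at least 1 CPM in 4 libraries the adjusted p was 0.0468 and Cox4i1 was the only one of the 33 genes called, where 2.01% of all genes were called higher. Cox4i1 lies within the span of Gm20388, a read-through gene on the same strand that covers many genes, and no transcript of Cox4i1 is clear of it.

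The largest fitted change of the 33 genes was that of Cox6a1, the widely expressed form of subunit 6a, at 67.5, 49.5, 28.5 and 25.3 CPM in floxed and at 135, 104, 37.4 and 42.6 CPM in KO LT-HSCs. Both ranges of numbers had the KO libraries higher, but the levels of numbers 4 and 5 were lower throughout, so the log2 fold change of 0.90 carried an SE of 0.46 (adjusted p = 0.293) without the block and of 0.16 with it (0.80, adjusted p = 0.0111). Cox5b, which encodes a zinc-binding subunit, showed the same arrangement at 8.44, 8.34, 4.72 and 4.14 CPM in floxed and 18.1, 13.9, 7.49 and 7.07 CPM in KO. Its log2 fold change was 0.86 ± 0.37 (adjusted p = 0.21) without and 0.83 ± 0.14 (adjusted p = 0.00732) with the block, the smallest adjusted p of the 33 in that fit. Of the 50-base stretches, 25.9% of those of Cox5b and 12.3% of those of Cox6a1 occur in transcripts of other genes. Cox7c was at 9.23, 8.55, 8.08 and 5.48 CPM in floxed and at 17.2, 18.7, 9.97 and 9.17 CPM in KO, where KO replicate 5 was just below floxed replicate 1. Cox7c was called with the block (0.76 ± 0.17, adjusted p = 0.0157), although 45.1% of its 50-base stretches occur in transcripts of other genes, which leaves its count uncertain. The log2 fold change of Cox7a2l, a protein that joins complexes III and IV in supercomplexes, was 0.37 ± 0.11 with the block (adjusted p = 0.0464) and 0.36 ± 0.18 without (adjusted p = 0.275). For Cox7a2l, 19.8% of the 50-base stretches occur in another gene.

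Cox6b1, Cox7a2 and Cox7b, small subunits of complex IV, followed the library number more than the genotype. Cox6b1 was at 29.8, 22.6, 19.4 and 13.9 CPM in floxed and 42.8, 39.7, 14.6 and 15.9 CPM in KO, Cox7a2 ranged from 15.3 to 29.0 CPM in numbers 1 to 3 and from 7.78 to 9.61 CPM in numbers 4 and 5, and Cox7b ranged from 14.2 to 18.4 CPM and from 3.79 to 5.53 CPM. In each of these genes the KO libraries were the higher within numbers 1 to 3 and mixed with the floxed libraries within numbers 4 and 5. Cox8a, at 79.0, 48.9, 73.6 and 69.2 CPM in floxed and 103, 98.0, 72.8 and 82.3 CPM in KO, had a log2 fold change of 0.40 ± 0.19 (adjusted p = 0.256). Cox5a had a log2 fold change of 0.37 ± 0.31 (adjusted p = 0.54), and 32.0% of its 50-base stretches occur in transcripts of other genes. Cox6c was the subunit below 0, at -0.11 ± 0.17 (adjusted p = 0.77), and it shares its span with Vps13b on the opposite strand. On a transcript clear of Vps13b its value was 0.27 (adjusted p = 0.797).

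The genes for the assembly of complex IV did not share a direction, and 2 of 5 had a fitted change above 0. Cox11, a chaperone that delivers copper to the complex, was at 7.49, 13.3, 8.50 and 8.32 CPM in floxed and at 15.8, 13.5, 18.2 and 14.7 CPM in KO LT-HSCs. The KO libraries were all higher, with floxed replicate 3 next to the lowest KO library, and the log2 fold change was 0.72 ± 0.22 (adjusted p = 0.0917; 0.0343 with the block for numbers 4 and 5). Of the 50-base stretches of the Cox11 transcript, 50.4% occur in Tom1l1, which overlaps it on the opposite strand and was at 16.8, 49.9, 10.5 and 9.43 CPM in floxed and at 40.0, 40.7, 27.3 and 24.7 CPM in KO. The kit does not mark strand, so reads of the overlap cannot be assigned to either gene. Sco1, another copper chaperone, was at 9.02, 4.92, 7.44 and 6.94 CPM in floxed and at 4.41, 5.12, 4.29 and 5.40 CPM in KO. Floxed replicate 3 lay within the KO values and the other floxed libraries lay above them, so the log2 fold change was -0.56 ± 0.22 (adjusted p = 0.184) with and -0.69 (adjusted p = 0.0276) without that library. Cox10, which makes the haem precursor of complex IV, was at 10.8, 11.4, 20.1 and 18.0 CPM in floxed and 11.8, 9.23, 10.8 and 14.1 CPM in KO, with a log2 fold change of -0.39 ± 0.25 (adjusted p = 0.397). Its span meets 9630013K17Rik on the opposite strand, and on a transcript clear of that gene the change was -1.18 ± 0.35 (adjusted p = 0.0910; unadjusted p = 0.00745). Cox15, the next enzyme of haem A synthesis, kept to between 24.1 and 29.3 CPM in all libraries, a log2 fold change of -0.12 ± 0.13 (adjusted p = 0.653). Cox15 overlaps Entpd7 on the opposite strand, whose count was 64.3% of that of Cox15, and on a transcript clear of Entpd7 the change was -0.53 ± 0.29 (adjusted p = 0.329). Surf1 ranged from 11.3 to 18.0 CPM, with a log2 fold change of 0.19 ± 0.17 (adjusted p = 0.561). It overlaps Surf2 on the opposite strand, whose count was 88.2% of that of Surf1, and on a transcript clear of Surf2 the change was 0.19 as well.

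Complex V, the ATP synthase, is represented by subunits of its catalytic head. Atp5a1, the alpha subunit, was at 255, 266, 251 and 261 CPM in floxed and at 343, 336, 351 and 327 CPM in KO LT-HSCs. Its spread within a genotype was small, 258 ± 6.66 CPM against 339 ± 10.4 CPM (SD, n = 4), the same in both ranges of library numbers, and the groups were well apart. The log2 fold change was 0.39 ± 0.14 (adjusted p = 0.145), and 0.39 ± 0.11 (adjusted p = 0.0403) with the block for numbers 4 and 5. Atp5b, the beta subunit that holds the catalytic sites, was at 331, 328, 278 and 280.0 CPM in floxed and at 413, 399, 361 and 343 CPM in KO. Again all KO libraries were higher, and the log2 fold change was 0.32 ± 0.16 (adjusted p = 0.281; 0.0797 with the block). Atp5c1, the gamma subunit of the rotor stalk, was at 43.6, 39.7, 20.8 and 22.0 CPM in floxed and at 36.8, 37.2, 23.0 and 24.2 CPM in KO. It did not follow the other subunits, and the library number separated it completely. Per length of the spliced transcript, although the deposited counts take in introns, the highest mean levels in floxed LT-HSCs among the 32 genes other than Uqcrh were those of Atp5b (159 CPM per kilobase), Cox8a (123), Cox4i1 (109) and Atp5a1 (105), and the lowest was that of Sco1 (2.68).

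By complex, the summed level did not overlap between genotypes for complex II (226 to 251 CPM in floxed and 263 to 273 CPM in KO), for complex III without Uqcrh (249.8 to 288 CPM and 333 to 368 CPM) and for complex V (550.3 to 634 CPM and 694 to 793 CPM). As single genes, all KO libraries were higher for 0 of 4 in complex II, 3 of 9 in complex III and 2 of 3 in complex V. The ranges of the complex IV subunits, 333 to 427 CPM in floxed and 412 to 644 CPM in KO, overlapped by the value of floxed replicate 1. The complex IV assembly genes summed to 68.9 to 76.4 CPM in floxed and 70.9 to 75.6 CPM in KO.

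Within numbers 1 to 3 the KO mean was above the floxed mean for 28 of the 33 genes, and within numbers 4 and 5 for 22. Over all genes with counts in each of these groups, 49.1% and 50.6% were above. The median log2 ratio of the 33 genes was 0.40 within numbers 1 to 3 and 0.13 within numbers 4 and 5, against -0.01 and 0.01 over all genes. In 20 of the 33 genes the KO mean was higher in both ranges, and in 3 (Sco1, Cox10 and Cox15, all assembly genes of complex IV) it was lower in both, against 33.9% and 34.3% of all genes. edgeR's test of the interaction between genotype and range called none of the 33 genes and none of all 21902 (0% called), with the lowest adjusted p of the 33 at 0.57. The fit had few libraries for each genotype in each range, so a lack of calls does not show that the ranges are alike. At an unadjusted p under 0.05 the term passed for 4 of the 33 (Uqcrh, Uqcr10, Cox6b1 and Cox7a2) and for 1863 of all 21902 genes. All 4 terms were below 0, as were 793 of the 1863, and 1070 were above 0. At any p the term was below 0 for 26 of the 33 and for 10518 of all 21902 genes. With limma-voom or with RLE size factors no gene was called either.

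**Figure D4:**
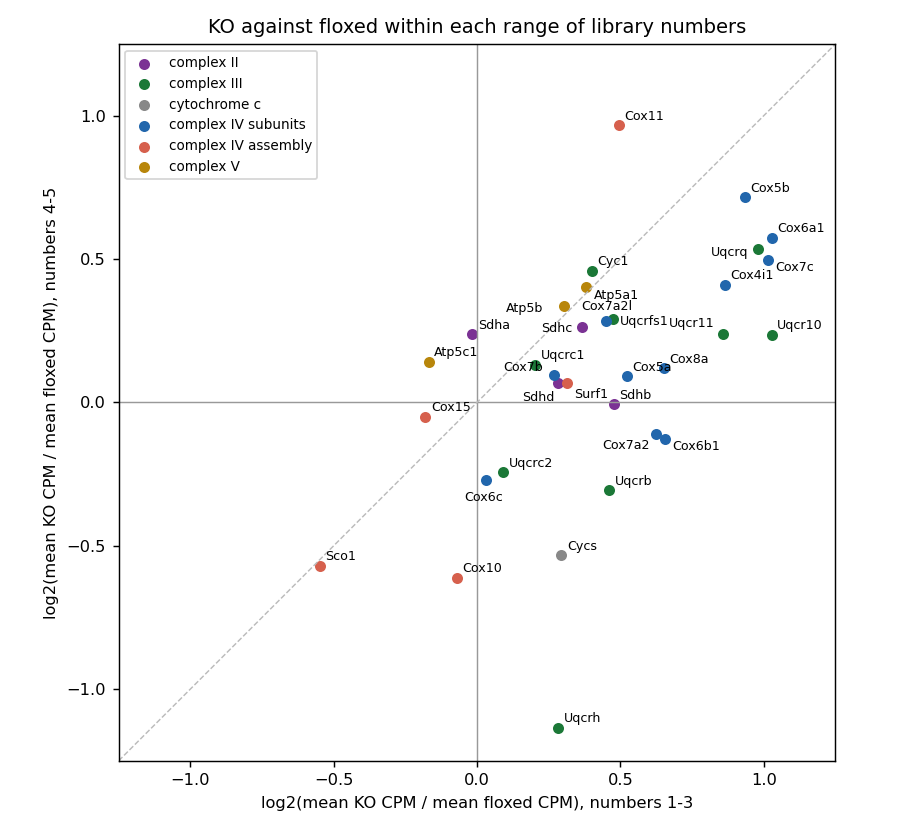
log2 ratio of the KO mean to the floxed mean of each gene within library numbers 1 to 3 (horizontal) and within numbers 4 and 5 (vertical), coloured by complex, with the line of equal values dashed. Points lie below the dashed line for 26 of the 33 genes, while Cyc1, Atp5a1, Atp5b and Sco1 lie close to it.

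The difference between the library numbers was itself larger for many of these genes than the difference between genotypes. In 11 of the 33 genes all 4 libraries numbered 4 and 5 were below all 4 numbered 1 to 3, where 13.3% of all genes were, and in 3 (Sdhc, Sdhd and Uqcrfs1) they were above, where 12.5% of all genes were. Uqcrb was at 13.6 ± 3.62 CPM in numbers 1 to 3 and at 2.56 ± 0.654 CPM in numbers 4 and 5 (SD, n = 4 each), Uqcr11 at 5.55 ± 2.02 and 1.43 ± 0.362 CPM and Cox7b at 15.9 ± 1.91 and 4.82 ± 0.743 CPM. These are small subunits, and the level in numbers 1 to 3 was 5.30, 3.88 and 3.29 times that in numbers 4 and 5. Of the 33 genes, the 10 other than Uqcrh whose spliced transcript is under 700 bases were all lower in numbers 4 and 5, with a median log2 ratio of -0.97. Over the 582 protein-coding genes of that length the median was -0.21. The 22 longer genes had a median of -0.01, and the 13904 longer protein-coding genes one of -0.07. Gene counts per library also differed, at 34672846 to 44874882 in numbers 1 to 3 and 23412829 to 32933634 in numbers 4 and 5. The part of depth in these differences was not tested. The labels do not say what else differed between these ranges of numbers, and the values are a description with no test.

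**Figure D5:**
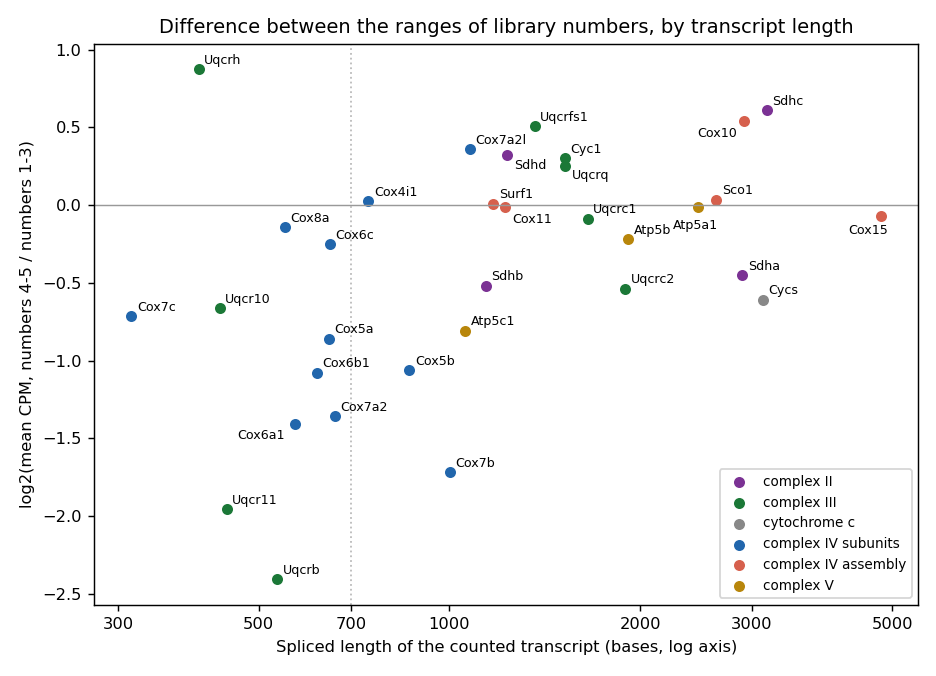
log2 ratio of the mean CPM in library numbers 4 and 5 to that in numbers 1 to 3 for each gene (vertical), against the spliced length of its counted transcript on a log axis (horizontal), coloured by complex, with a dotted line at 700 bases. Left of that line all genes but Uqcrh lie below 0, down to -2.41 for Uqcrb.

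Markers of other cell types differed between genotypes and between libraries. Over all genes tested, edgeR called 1.22% higher in KO and 1.75% lower. Without floxed replicate 3 these shares were 8.9% and 8.64%, so calls rose over the whole table and not only among markers. The 20 erythroid markers had fitted changes above 0 in every case, 2 were called higher (Klf1 and Gata1), and their summed level was 3425, 10477, 3211 and 3424 CPM in floxed and 9884, 9662, 10330 and 10502 CPM in KO libraries. Floxed replicate 3 had an erythroid level within the KO range, and without it all 20 were called higher. It was also the deepest library, with counts in 34367 genes against 28182 to 29707 in the others. The part of its depth in the calls was not tested. Of 12 megakaryocyte and platelet markers 8 were called higher, with sums of 81.2 to 151 CPM in floxed and 268 to 323 CPM in KO, and floxed replicate 3, at 125 CPM, was among the floxed values there. Between 2 and 10 of the 12 were called when 1 library was left out, and between 40 and 1967 of all genes were called higher in those fits. Of 14 neutrophil and monocyte markers 0 were called by edgeR, 2 had an unadjusted p under 0.05 (both lower), DESeq2 and limma-voom called 0, and the sums were 19528 to 61649 CPM in floxed and 29164 to 35708 CPM in KO. Without floxed replicate 3, whose sum was the lowest, 8 of the 14 were called lower. Of the other lists, 4 of 6 haemoglobin genes and 2 of 11 B cell markers were called higher, and 2 of 7 plasma cell markers and 1 of 12 T and NK cell markers were called lower. Without floxed replicate 3 these numbers were 6, 9, 3 and 4, and without any other single library they were 0, apart from 1 plasma cell marker without floxed replicate 4. The erythroid markers likewise had 0 calls without any library other than floxed replicate 3. The part of erythroid, megakaryocytic, neutrophil and other cells in the levels of the respiratory genes was not tested. With haemoglobin genes left out of the library sizes, 25 of the 33 fitted changes were above 0, as with them, and none was called.

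Other genes of the same pathway showed how far the pattern reached. Over all genes tested, 1.22% were called higher. Of 17 further genes of the ATP synthase that were tested, 16 had a fitted change above 0, with a median of 0.52, and 1 was called higher. That gene was Atpif1, which encodes the inhibitor of ATP hydrolysis by the synthase, at 60.2, 94.6, 62.3 and 48.7 CPM in floxed and 197, 180.2, 135 and 142 CPM in KO LT-HSCs (log2 fold change 1.30 ± 0.23, adjusted p = 0.0266). Of the 50-base stretches of Atpif1, 16.1% occur in transcripts of other genes. Across this list the share ran from 0% to 89.8%, which leaves some of these counts uncertain. Of 31 other assembly factors of complexes II to IV, 19 were above 0, the median was 0.21 and 1 was called higher. This was Cmc2, a factor for complex IV, which was at 10.3, 12.3, 10.7 and 9.01 CPM in floxed and 22.3, 21.04, 22.0 and 21.4 CPM in KO, with a log2 fold change of 1.04 ± 0.15 (adjusted p = 0.0156). The share of 50-base stretches found in other genes was 0% for Cmc2 and reached 100% in its list. Of 4 tissue isoforms of complex IV tested, Cox6b2, known from testis, was called higher, with 7.49 ± 2.01 CPM in floxed and 16.3 ± 2.76 CPM in KO (SD, n = 4; log2 fold change 1.12 ± 0.23, adjusted p = 0.0365). All 3 of these genes had KO libraries above all floxed libraries. With the replicate number as a block, a fit without floxed replicate 1 and KO replicate 2, their adjusted p was 0.0948 for Atpif1, 0.102 for Cmc2 and 0.131 for Cox6b2. Leaving out a single library ended calls as well. Atpif1 and Cox6b2 lost theirs without any library other than floxed replicate 3, with adjusted p up to 0.0874 and 0.105. Cmc2 lost its call without KO replicate 2, 4 or 5 or floxed replicate 1 or 5, with adjusted p up to 0.0582. DESeq2 called 3 of the 17 ATP synthase genes (Atp5d and Atp5g3 beside Atpif1), 1 of the 31 assembly factors and 2 of the 4 tissue isoforms. All were higher, where DESeq2 called 5.12% of all genes higher. Without floxed replicate 3 edgeR called 3, 3 and 2 of these lists higher, where 8.9% of all genes were called higher.

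In neighbouring pathways edgeR and limma-voom called 0 genes, and DESeq2 called 1, Gabpa, lower, as it did 1326 of all 21902 genes. Without floxed replicate 3 edgeR called Tfam and Timm44, an import protein, higher, where 8.9% of all genes were called higher. Of 13 citrate cycle enzymes, 9 had fitted changes above 0 with a median of 0.08, and 0 had an unadjusted p under 0.05. Of 11 genes of the outer membrane and of protein import, 10 were above 0 with a median of 0.26, from -0.19 for Tomm70a to 0.55 for Tomm40 (adjusted p = 0.168), and 2 had an unadjusted p under 0.05. The share of 50-base stretches found in other genes reached 90.9% in this list. The 12 regulators of respiratory genes had a median of 0.02, with Tfam, the packaging and transcription factor of mitochondrial DNA, at 0.40 (adjusted p = 0.261) and Gabpa, a subunit of nuclear respiratory factor 2, at -0.65 (adjusted p = 0.102), the only regulator with an unadjusted p under 0.05.

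Nuclear respiratory genes are known to share promoter sites for NRF1 and for nuclear respiratory factor 2. In RefSeq promoters (GRCm38.p6), the 250 bases before the start were available for 25 of the 33 genes and for 27025 genes in all. The NRF1 core GCGCATGC, on either strand, was in 3 of the 25 (Sdhb, Cox6a1 and Cycs) and in 2.32% of all promoters. The GABPA core CCGGAAGT, on either strand, was in 3 of the 25 (Uqcrh, Uqcr11 and Cox10) and in 2.93% of all promoters. The letters TCAAGGTC, read by ESRRA, and AAGATGGC, read by YY1, were in none of the 25 and in 0.907% and 1.59% of all promoters. The 3 promoters shown here hold a match and belong to the gene with the largest fitted change, to Cycs near 0 and to Cox10 below 0. Capitals mark the matches, which overlap on both strands in Cox6a1. Cox6a1 is chr5:115348959-115349208, minus strand, Cycs chr6:50566570-50566819, minus strand, and Cox10 chr11:64079473-64079722, minus strand.
Cox6a1: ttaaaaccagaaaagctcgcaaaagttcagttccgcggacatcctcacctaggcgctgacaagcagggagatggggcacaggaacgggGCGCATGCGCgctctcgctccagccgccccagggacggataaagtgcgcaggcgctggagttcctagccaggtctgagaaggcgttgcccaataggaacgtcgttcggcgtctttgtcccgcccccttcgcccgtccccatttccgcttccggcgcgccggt
Cycs: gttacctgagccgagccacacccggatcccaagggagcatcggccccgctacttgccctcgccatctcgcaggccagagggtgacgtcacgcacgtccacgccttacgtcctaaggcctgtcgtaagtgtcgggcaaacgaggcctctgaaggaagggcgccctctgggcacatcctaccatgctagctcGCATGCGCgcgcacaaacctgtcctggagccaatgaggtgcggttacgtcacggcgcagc
Cox10: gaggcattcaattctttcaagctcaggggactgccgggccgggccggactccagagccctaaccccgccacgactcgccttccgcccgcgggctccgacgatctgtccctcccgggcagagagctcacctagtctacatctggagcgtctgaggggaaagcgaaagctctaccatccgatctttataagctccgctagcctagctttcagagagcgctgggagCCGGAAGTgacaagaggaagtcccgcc

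A match of these letters was thus present upstream of genes with fitted changes of 0.90, -0.03 and -0.39, and is a description of the sequence alone.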

How the data were processed

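LT-HSC RNA was sequenced from 4 mice of each genotype, asrij floxed and asrij KO. Per the labels and the methods, the authors used FastQC for read quality, Trim Galore for trimming and Bowtie 2 for alignment to GRCm38/mm10 transcripts, and deposited raw counts for 138930 Ensembl transcripts per library. The counting tool, its versions and its use of strand are not given in the sources used here. The methods give CD48+ cells for these libraries and CD48- for LT-HSCs elsewhere. The authors deposited counts in all 8 files, of which 7 are tab-separated under another extension and were recorded as another unit.

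Transcripts were mapped to genes with GENCODE M21 (138789 found), and the transcript with the most counts over all libraries stood for its gene. A transcript inside another gene's intron never had more counts than the outer transcript (4354 pairs, 2891 on opposite strands), so counts cover whole spans and both strands. Of the 33 genes, 10 share a span with a gene of 10% or more of their count. In 12 of the 33, 10% or more of the 50-base stretches occur in transcripts of other genes. Gene counts (23412829 to 44874882 per library) were filtered with filterByExpr, scaled by TMM and tested with edgeR 4.0.16 (R 4.3.3, quasi-likelihood, Benjamini-Hochberg), with DESeq2 1.42.0 and limma-voom 3.58.1 as alternatives, all tested on simulated data. Each mouse gave 1 library, and how mice, depth and library numbers share in the error was not tested. The 33 genes and all lists were chosen with earlier results of these data known. Named genes are all 33, Ociad1 and, of each other list, those called or, with none called, those with the largest positive and negative change. Markers summarised by list are an exception, and Atp5d, Atp5g3, Kit, Procr, Gm12854, S100a11 and Tom1l1 were named after their values were seen. Some single-gene results from the background lists are not reported here.

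Libraries share numbers 3, 4 and 5 across genotypes in the labels. Deviations from the group means correlated over genes at 0.427 to 0.707 (r, 3 pairs) between libraries of the same number. Between different numbers of the same range, 1 to 3 or 4 and 5, they correlated at 0.359 to 0.711. The mean r was 0.529 and 0.532 in these sets, so the values do not show a pairing by number beyond the range. The main fit did not pair the samples, and the block by replicate number is an alternative. Across the ranges the correlation was -0.726 to -0.38.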

Additional observations from a re-analysis of the deposited data

Results flagged for a closer look

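In 1 of 70 groups of 4 libraries a library stood apart, where chance gives 3.5. No conclusion is drawn from that, since the 4 libraries of each genotype also split by library number in many genes. Floxed replicate 1 had 37.5 CPM of Sdhb, and the other floxed libraries had 27.6 to 29.1 CPM. Atp5c1 was below both floxed libraries in both KO libraries within numbers 1 to 3 (log2 ratio -0.17) and above them within numbers 4 and 5 (log2 ratio 0.14). The interaction of edgeR for this gene was 0.31 on the log2 scale (adjusted p = 0.604).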

How the results depend on the processing

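The number of the 33 genes called was 0 as reported, 4 with DESeq2, 1 with a filter of at least 1 CPM in 4 libraries, 11 with the block for numbers 4 and 5, and 0 to 6 when 1 library was left out, where the 6 came without floxed replicate 3. Upper quartile and RLE scaling, haemoglobin genes left out, limma-voom, no filter, sums over transcripts, genes without overlap and transcripts clear of other genes each gave 0. The number with a fitted change above 0 stayed within 1.5 times of 25 in every alternative, and the number with all KO above all floxed values was 7 as reported and 4 among the 20 that overlap no other gene with counts. Genes called over the whole table numbered 651 as reported, 2447 with DESeq2, 4059 with the block for numbers 4 and 5, and 61 to 3875 without 1 library, the highest without floxed replicate 3. With an absolute log2 fold change above 1.5 as well, they numbered 261, 503, 521 and 51 to 857 in the same order. With the replicate number as a block, which pairs libraries 3, 4 and 5 and leaves out floxed replicate 1 and KO replicate 2, 48 genes were called. Of these, 44 were past both thresholds, and the block changed no call among the 33. The causes of these shifts were not tested. Fitted changes that turned sign were all uncalled. On transcripts clear of other genes, an alternative chosen after seeing the data, Uqcrc2 was at 0.15, Uqcrh at 0.34 and Cox6c at 0.27, while Cox10 moved from -0.39 to -1.18 and Cox15 from -0.12 to -0.53, both uncalled, and the Uqcrh log2 ratio less the Gm12854 count, also chosen afterwards, was 0.73. With sums over transcripts Cycs was at 0.077 and Cox6c at 0.16, with no filter Cycs was at 0.0084, and with the replicate block Atp5c1 was at 0.080. Without 1 library the change of Sdha ranged from -0.020 to 0.24, of Uqcrc2 from -0.22 to 0.098, of Uqcrb from -0.076 to 0.99, of Cycs from -0.26 to 0.18, of Cox6c from -0.18 to 0.0085, of Cox7b from -0.091 to 0.53 and of Atp5c1 from -0.21 to 0.17. The haemoglobin share kept its result in all alternatives run. The interaction called no gene in the alternatives run for it, each with few libraries for a genotype in a range.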

Other observations

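Among the 32 genes other than Uqcrh, KO replicate 2 had the highest level of the 8 libraries in 15 genes and the lowest in 0. KO replicates 3 and 4 were the highest in 5 genes each, and KO replicate 4 was also the lowest in 5. Floxed replicates 3, 4 and 5 were the lowest in 8, 6 and 7 genes.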
